A study of Mus musculus with 5 samples.

Results

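The genes described here are the Wnt ligands, their Frizzled receptors, and the co-receptors and secreted modulators that set how much Wnt signal a cell receives. They were taken by name: every symbol of the Wnt, Fzd, Sfrp, Dkk and Rspo families, plus Wif1, Lrp5, Lrp6, Lgr4, Lgr5, Lgr6, Axin2, Ror1, Ror2 and Ryk. The rule found 52 genes among the 22180 genes with a probe set of their own. It uses names alone, but it was set with earlier results of these data known. They comprise 19 ligands, 10 Frizzled receptors, 5 co-receptors or other receptors, 7 R-spondins or Lgr receptors, 9 secreted inhibitors, the feedback target Axin2 and Fzd10os, an antisense RNA at the Fzd10 locus that matched the symbol rule.

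The arrays held RNA from mammary epithelial cells of mice aged 4 weeks on a congenic FVB/NJ background. The conditional knockout group (2 arrays) carried MMTV-Cre and 2 floxed Mmp14 alleles, and the group called wild type (3 arrays) consisted of Mmp14(f/f) littermates without Cre. The MMTV promoter drives Cre mainly in mammary epithelium, so stromal cells of a preparation would keep Mmp14. Because only the knockout mice carried Cre, effects of the transgene and of the deletion cannot be told apart. The question was how loss of the membrane-anchored protease MMP14 in the epithelium alters gene expression in the growing gland.

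Wnt proteins are secreted lipid-modified ligands that bind a Frizzled receptor together with LRP5 or LRP6, which stabilises beta-catenin and switches on TCF/LEF target genes such as Axin2. R-spondins raise the number of receptors at the cell surface through LGR4, LGR5 or LGR6. SFRP and WIF1 proteins instead bind the ligands, and some DKK proteins, such as DKK1, act on LRP5 and LRP6. ROR1, ROR2 and RYK bind Wnt ligands in branches of the pathway that do not need beta-catenin. In the mammary gland WNT4 acts downstream of progesterone, WNT5A restrains ductal branching, RSPO1 works with WNT4 on the stem cell compartment, and LGR5 marks a subset of basal cells.

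Values are log2 signals of a probe set, so a difference of 1 is a doubling, and the level of a gene is set against other genes only by its rank, as a rough guide to dim signals, since probe sets differ in brightness. Means carry their SD (n = 2 for the knockout, n = 3 for the wild type), differences are knockout minus wild type, and SE is limma's moderated standard error. Over the 22180 genes 0% passed limma's adjusted p of 0.05 and 1.3% had an unadjusted p under 0.05. Mmp14 read 7.98 and 7.28 on the knockout arrays and 8.15, 8.67 and 7.75 on the wild-type arrays, a difference of -0.56 ± 0.39 (SE; limma adjusted p = 0.919). Knockout 1 lay above wild type 3, so the groups overlapped. Within each run the knockout array was below its wild-type arrays, by differences of -0.43 in run 1 and -0.46 in run 2, and with 1 array left out the difference lay between -0.91 and -0.21. Mmp14 thus lay on the side the labels give, without passing the test. Knockout 2 stood apart on the first principal component, with a score of 25.3 against -12.5 to 4.63 on the other arrays. All 11 measured luminal markers and 8 of 9 basal markers lay at or above the median signal of all genes, but so did 10 of 10 fibroblast and 8 of 8 endothelial markers. In such bulk samples fewer cells of a type and less RNA per cell cannot be told apart. Array numbers in the labels fall in 2 consecutive runs, run 1 holding 3 arrays (knockout 1 beside wild type 1 and 2) and run 2 holding the other 2 (knockout 2 beside wild type 3). The labels do not say what a run stands for.

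None of the 52 members passed limma's test, and 0 had an unadjusted p under 0.05. The smallest adjusted p was 0.919 and the smallest unadjusted p was 0.0963, for Wif1. The mean was higher in the knockout for 25 members, lower for 26 and equal for Fzd10os, and the median difference was -0.00, against 0.00 over all genes. The groups did not overlap for Wif1 and Fzd7, both higher in the knockout (2 of 52, against 2.63% of all genes), or for Wnt3 and Lgr6, both lower (2 of 52, against 2.8%), shares not far from the background. No member had group means 1.5-fold or more apart, which 0.365% of all genes had. The 95% interval of the difference lay inside a 2-fold change in either direction for 50 of the 52 members, the exceptions being Lgr5 and Sfrp5, and inside a 1.5-fold change for 40. Of all 22180 genes, 21294 had an interval inside a 2-fold change and 18728 inside a 1.5-fold change, so such intervals are not particular to the members.

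**Figure D1:**
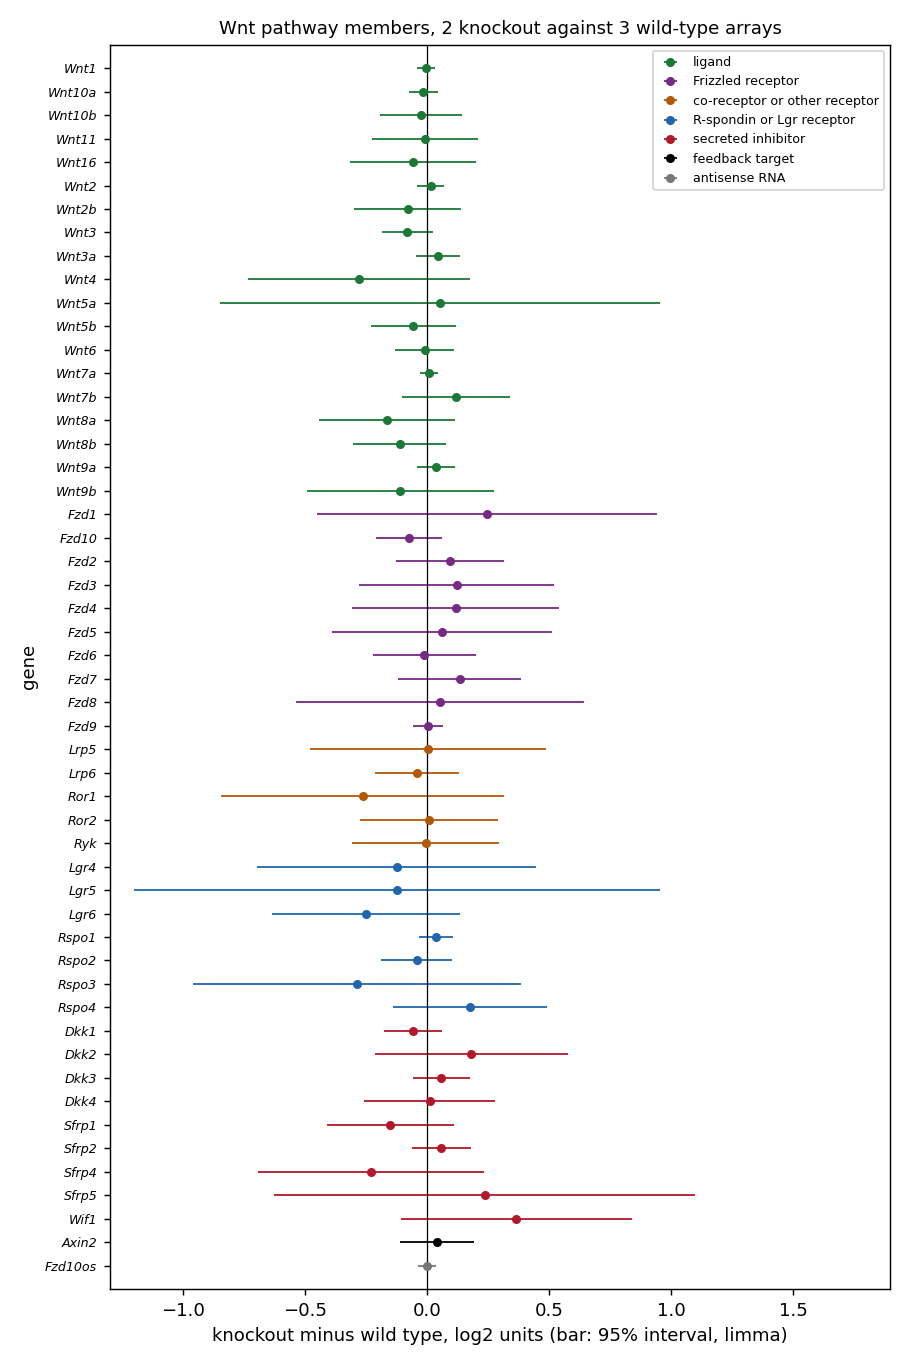
Difference between knockout and wild type for each of the 52 members, in log2 units, with the 95% interval from limma (2 against 3 arrays) and colours for the role of the gene. Every interval includes 0, the points run from -0.29 (Rspo3) to 0.37 (Wif1), and the intervals of Lgr5, Wnt5a and Sfrp5 are among the widest.

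Exact ties limit how these intervals can be read. To 6 decimals, 32 of the 52 members repeated a value on at least 1 other array, where 68.8% of all genes did. All 3 wild-type arrays were equal for 7 members (13.5%), where 12.8% of all genes had this. Ties were frequent among the ligands (16 of 19) and rare among the co-receptors (1 of 5). Where the wild-type values are equal, that group adds no spread of its own to the estimate, as for Wnt3, while the SE of Lgr5 comes from its knockout arrays. The mean signal of 22 members, 14 of them ligands, lay below the median gene, and without detection calls such signals cannot be told from background.

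Of the ligands, 6 had a higher and 13 a lower mean in the knockout, with a median difference of -0.01. Wnt4, the ligand downstream of progesterone, read 5.33 and 4.87 in the knockout and 5.45, 5.33 and 5.37 in the wild type. Only knockout 2 was low, and knockout 1 was at the level of wild type 2. The difference was -0.28 ± 0.16 (SE; limma adjusted p = 0.919), -0.51 without knockout 1 and -0.05 without knockout 2. The luminal marker Pgr, the progesterone receptor, showed the same array low, at 6.55 in knockout 2 against 7.10 in knockout 1 and 7.11, 7.10 and 7.10 in the wild type. Esr1, another luminal marker, went the other way and was highest in knockout 2. It read 6.07 and 6.12 in the knockout and 5.86, 6.01 and 6.01 in the wild type, without overlap. A low knockout 2 was not particular to Pgr. Krt8, Krt18, Elf5, Kit, Foxa1 and Gata3 were also lowest on that array, while Krt19, Epcam and Cdh1 were lowest in wild type 2. The mean of the 11 luminal markers was 8.42 and 8.15 in the knockout and 8.33 to 8.36 in the wild type, 7 of the 11 having a lower mean in the knockout, and their part in the Wnt4 values was not tested.

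Wnt5a, which signals largely without beta-catenin, had the widest spread of the ligands. It read 5.48 in knockout 1 and 4.56 in knockout 2, against 4.85, 5.02 and 5.03 in the wild type. The knockout arrays thus lay on both sides of all wild-type arrays, and the group means of 5.02 ± 0.66 and 4.97 ± 0.10 were close (0.05 ± 0.32, SE; limma adjusted p = 1.00). The 95% interval ran from -0.85 to 0.96. Without knockout 1 the difference was -0.41 and without knockout 2 it was 0.52.

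Wnt3 read 2.53 and 2.43 in the knockout and 2.56 on each of the 3 wild-type arrays, which were equal to 6 decimals. Its groups did not overlap, but the difference was -0.08 ± 0.04 (SE; limma adjusted p = 0.919) at a signal percentile of 5.29 among all genes, where background cannot be told from expression. It was -0.13 without knockout 1 and -0.03 without knockout 2. Wnt8b, at 2.65 and 2.83 against 2.89, 2.83 and 2.83, was low in knockout 1 alone. Wnt10b, an early mammary lineage ligand, read 3.25 and 3.22 against 3.34, 3.17 and 3.27. Wnt6 read 3.23 and 3.24 against 3.31, 3.23 and 3.20. Both pairs of groups overlapped, with differences of -0.02 and -0.01. The other 13 ligands had differences between -0.16 (Wnt8a) and 0.12 (Wnt7b), and no separated groups.

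Wnt genes often lie next to each other on a chromosome. In the RefSeq gene table of GRCm38.p6, used for names and neighbours only, 4 pairs of members were adjacent protein-coding genes. The differences were -0.01 for Wnt6 and -0.01 for Wnt10a, 0.04 for Wnt3a and 0.04 for Wnt9a, -0.11 for Wnt9b and -0.08 for Wnt3, and -0.02 for Wnt10b and -0.00 for Wnt1. Neighbours had means on the same side, but 13 of the 19 ligands had a lower mean in any case. The difference of Wnt1 came from wild type 1 alone and that of Wnt10a from wild type 3 alone. Those of Wnt3a and Wnt9a came from knockout 2 alone. No member of a pair was called with all 5 arrays.

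Of the 10 Frizzled receptors, 8 had a higher mean in the knockout, with a median difference of 0.08. Wild type 3 was the lowest of the 5 arrays for 6 of the 10 (3404 of all 22180 genes), and wild type 2 the highest for 4 (3423 of all genes). Fzd7, a receptor of basal progenitors, read 5.02 and 5.0 in the knockout and 4.94, 4.97 and 4.73 in the wild type. Every wild-type array was below both knockout arrays, wild type 2 by little and wild type 3 by most. The difference was 0.13 ± 0.09 (SE; limma adjusted p = 0.919), and 0.06 without wild type 3.

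Since TCF/LEF factors read out the pathway, the promoters of members were searched for CTTTGAA, for CTTTGAT, for CTTTGTA and for CTTTGTT on both strands, in RefSeq windows of 250 bases before to 50 bases after a gene's start (GRCm38.p6). Windows were at hand for 34 members, and 5 of their 37 windows (13.5%) held a word, against 16.9% of all 32851 windows. These were the windows of Fzd7, Wnt5b, Wnt11, Wnt3 and Dkk1. Fzd7 is shown because its groups did not overlap and its word lies before the start, a choice made after its values were seen. The 250 bases before its start lie at chr1:59481897-59482146 on the plus strand, 5′ to 3′, with the word (CTTTGTT on the other strand) in capitals from base 121.
Fzd7: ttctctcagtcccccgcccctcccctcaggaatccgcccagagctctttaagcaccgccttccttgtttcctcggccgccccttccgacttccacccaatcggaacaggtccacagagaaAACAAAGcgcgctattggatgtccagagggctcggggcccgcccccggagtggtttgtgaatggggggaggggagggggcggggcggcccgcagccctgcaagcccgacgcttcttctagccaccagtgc
A match is a string of letters and not a binding site, and nothing about TCF/LEF activity was measured here.

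Fzd1 read 6.95 and 6.28 in the knockout and 6.38, 6.50 and 6.22 in the wild type. Knockout 1 was above every other array, while knockout 2 lay among the wild-type arrays. The difference of 0.25 ± 0.24 (SE; limma adjusted p = 0.919) became 0.58 without knockout 2 and -0.09 without knockout 1. Fzd8 read 4.99 on both knockout arrays and 4.82, 5.29 and 4.71 in the wild type, so its spread came from the wild type. Fzd2 (2.83 and 3.00 against 2.73, 2.88 and 2.85) and Fzd10 (2.82 and 2.72 against 2.90, 2.82 and 2.82) were dim and overlapped. Their differences of 0.09 and -0.08 were 0.0069 and -0.02 without knockout 2. Fzd3, Fzd4, Fzd5, Fzd6 and Fzd9 had differences from -0.01 to 0.12. The antisense RNA Fzd10os read 4.65 on all 5 arrays.

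**Figure D2:**
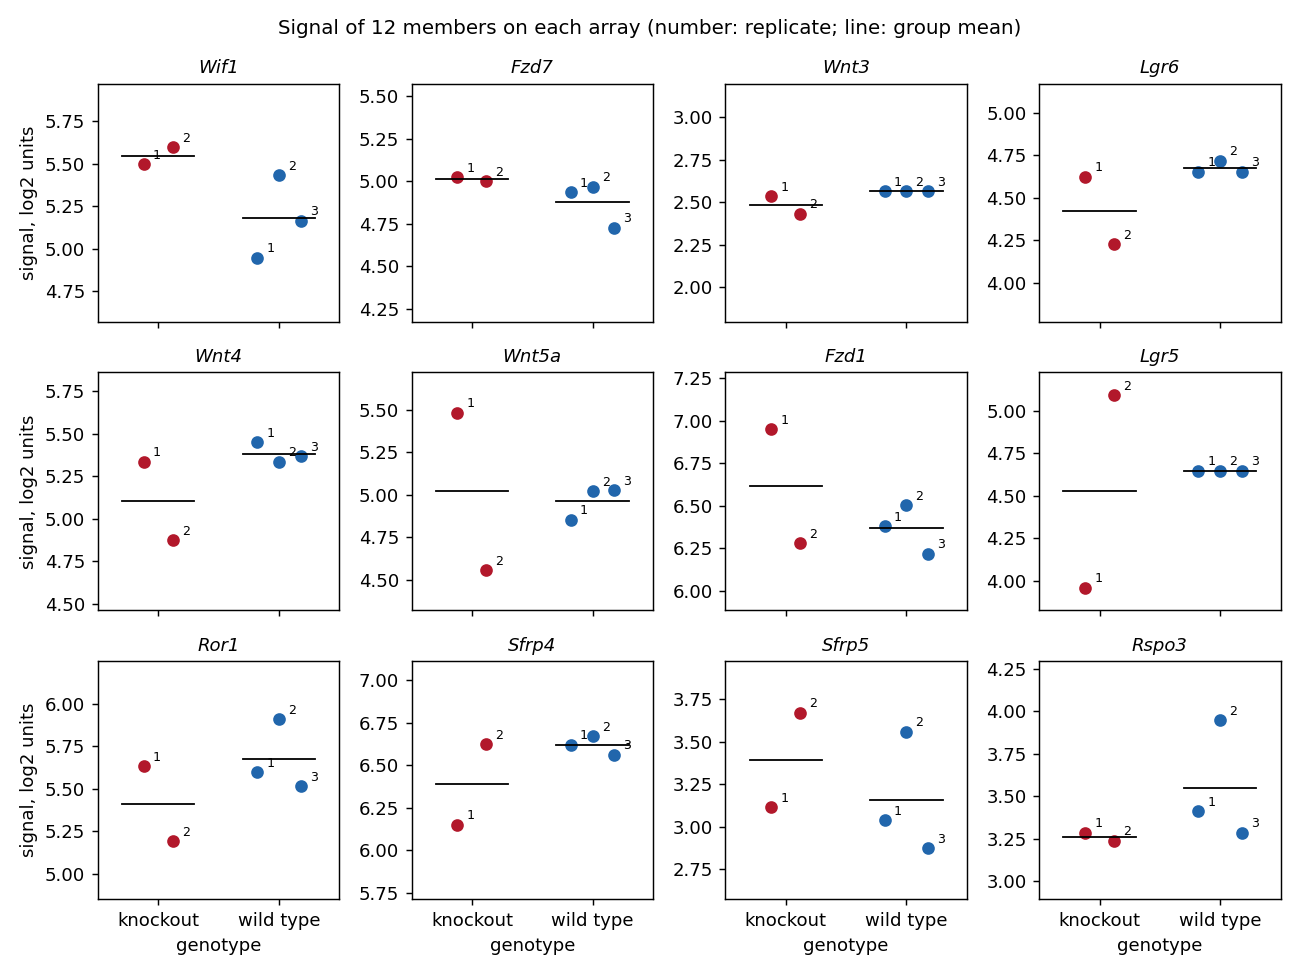
Signal (log2 units) of 12 members on each array, with the replicate number beside each point, the group mean as a line and an equal span of 1.4 log2 units on each vertical axis. The knockout points clear the wild-type points in Wif1, Fzd7, Wnt3 and Lgr6, and lie on opposite sides of them in Wnt5a and Lgr5.

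The co-receptors differed little in the mean. Lrp5 read 7.19 and 6.78 in the knockout and 7.02, 7.11 and 6.82 in the wild type, with the highest and the lowest of the 5 values both in the knockout and a difference of 0.00 ± 0.17 (SE; limma adjusted p = 1.00). Lrp6 read 8.55 and 8.60 against 8.52, 8.66 and 8.67, a difference of -0.04 with a 95% interval from -0.21 to 0.13. Its other probe set, not used in the test, gave means of 7.41 and 7.41.

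Among the receptors of the branches without beta-catenin, Ror1 had the largest difference. It read 5.63 and 5.19 against 5.60, 5.91 and 5.52, low in knockout 2 alone, with a difference of -0.26 ± 0.20 (SE; limma adjusted p = 0.919) that was -0.04 without knockout 2. Ror2, a WNT5A receptor, read 4.89 on both knockout arrays and 4.73, 5.02 and 4.89 in the wild type, so the wild-type arrays spanned the knockout. Ryk read 7.76 and 7.45 against 7.57, 7.65 and 7.61. As for Wnt5a, the knockout arrays of Ryk lay on both sides of the wild-type arrays.

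The R-spondin and Lgr genes had the largest median range over the 5 arrays among the 5 roles with several members, at 0.49, against 0.26 for all 52 members and 0.21 for all genes, and 3 of the 7 had a range above 0.5 (14.4% of all genes). Lgr5, the receptor that marks stem cells in several epithelia, read 3.96 in knockout 1 and 5.09 in knockout 2, against 4.65 on each of the 3 wild-type arrays, which were equal to 6 decimals. The knockout arrays lay on opposite sides of the wild type, and the difference of the means was -0.12 ± 0.38 (SE; limma adjusted p = 0.985). The other Lgr5 probe set kept that order, at 4.19 in knockout 1 and 4.65 in knockout 2 against 4.37, 4.37 and 4.39. Its difference of the means had the opposite sign, at 0.05.

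Lgr5 shows what a single array decides. Without knockout 1 its difference was 0.44 (limma adjusted p = 0.00703), and without knockout 2 it was -0.69 (limma adjusted p = 0.0207), so either knockout array alone gave a call, in opposite directions. Without knockout 1, 6 members were called (Lgr5, Lgr6, Wnt3, Wnt3a, Wnt9a and Dkk3), where 7.92% of all genes were. Without knockout 2, Lgr5 and Wnt7b were called, where 3.76% of all genes were. In these fits the single knockout array takes its spread from the wild type, and of the 7 genes in these calls 5 had equal values on all 3 wild-type arrays.

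Lgr6, a receptor of skin appendages and myoepithelium, read 4.62 and 4.22 in the knockout and 4.65, 4.72 and 4.65 in the wild type. Its groups did not overlap, with knockout 1 near the wild type and knockout 2 well below. The difference was -0.25 ± 0.14 (SE; limma adjusted p = 0.919), -0.45 without knockout 1 and -0.05 without knockout 2. The 7 skin keratinocyte markers, 2 of them at or above the median signal, all had a lower mean in the knockout. Their mean signal was 3.70 and 3.75 in the knockout and 4.77, 3.74 and 3.82 in the wild type. Only wild type 1 stood out in this list, and Lgr6 was not raised on that array. Of the 9 basal and myoepithelial markers, 7 had a higher mean in the knockout. Their mean signal was 7.68 and 7.86 in the knockout and 7.49, 7.90 and 7.49 in the wild type. The part of either list in the Lgr6 values was not tested.

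Lgr4 read 6.84 and 6.28 against 6.75, 6.75 and 6.56, and was low in knockout 2 alone. Its difference was -0.12, and 0.16 without that array. Rspo1, the partner of WNT4, read 4.50 and 4.56 against 4.50, 4.50 and 4.49, a difference of 0.04 ± 0.02 (SE; limma adjusted p = 0.919) that rested on knockout 2 and was 0.0043 without it. Rspo3 read 3.29 and 3.24 against 3.41, 3.95 and 3.29, so its lower mean in the knockout (-0.29 ± 0.24, SE) rested on wild type 2, and without that array it was -0.09. Rspo4 read 3.63 and 3.44 against 3.43, 3.44 and 3.21 and overlapped. Rspo2 differed by -0.04.

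Of the 9 secreted inhibitors, 6 averaged higher in the knockout than in the wild type, with a median difference of 0.06. Wif1, which binds Wnt ligands outside the cell, read 5.50 and 5.60 in the knockout and 4.95, 5.43 and 5.17 in the wild type. Every wild-type array was below both knockout arrays, with wild type 2 close to knockout 1. The difference was 0.37 ± 0.17 (SE; limma adjusted p = 0.919), with a 95% interval of the ratio from 0.929 to 1.79. It was 0.31 within run 1 and 0.43 within run 2, and between 0.25 and 0.49 with 1 array left out. Because the groups did not overlap, these differences could only be positive. The mean of the 9 basal and myoepithelial markers, 7 of which had a higher mean in the knockout, was also lowest in wild type 1 and wild type 3, though single markers such as Myh11 (lowest in knockout 1) did not all follow. It was 7.68 and 7.86 in the knockout and 7.49, 7.90 and 7.49 in the wild type, and their part in the Wif1 values was not tested.

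Sfrp1, an inhibitor whose loss has been linked to mammary overgrowth, read 4.44 and 4.63 in the knockout and 4.63, 4.79 and 4.63 in the wild type. It was low in knockout 1 alone, and overlapped (-0.15 ± 0.09, SE; limma adjusted p = 0.919). Sfrp4, found in mesenchyme, read 6.15 and 6.62 against 6.62, 6.67 and 6.56, again low in knockout 1 alone, and its difference of -0.23 became 0.01 without that array. Dkk3 read 4.54 in knockout 1 and on all 3 wild-type arrays, and 4.66 in knockout 2, so its difference of 0.06 was 0.0 without knockout 2. Dkk1, Dkk2, Dkk4 and Sfrp2 had differences of -0.06, 0.18, 0.01 and 0.06 and overlapping groups. The other Sfrp2 probe set also gave 0.06.

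Sfrp5 read 3.12 and 3.67 in the knockout and 3.04, 3.56 and 2.88 in the wild type, which is a spread within both genotypes (0.24 ± 0.30, SE; limma adjusted p = 0.919, and -0.04 without knockout 2). Knockout 2 and wild type 2 were its highest arrays, as for Fzd2, Fzd4, Dkk2 and Sfrp4. This held for 5 of the 52 members (9.62%), against 5.68% of all genes. It was not the commonest pair among the members: knockout 1 and wild type 2 were the highest arrays for 7 (13.5%: Wnt9b, Fzd1, Lrp5, Ror1, Ryk, Lgr4 and Rspo4), against 7.07% of all genes. Knockout 2 and wild type 2 were the highest in the means of the fibroblast, endothelial, pericyte, nerve and basal markers. The fibroblast mean was 8.39 and 8.47 in the knockout and 8.24, 8.72 and 8.10 in the wild type, 6 of 10 markers having a higher mean in the knockout. The pericyte mean was 5.71 and 6.16 against 5.74, 6.22 and 5.82, with 3 of 6 higher. The endothelial mean was 6.32 and 7.05 against 6.78, 7.05 and 6.67, with 2 of 8 higher. The nerve mean, from 3 markers, was 5.58 and 5.81 against 5.42, 5.82 and 5.45. The adipocyte mean, also highest on these arrays, was 5.40 and 5.56 against 5.43, 5.46 and 5.40. The immune mean was highest in wild type 1 (5.08 and 5.10 against 5.73, 5.39 and 5.06), with 8 of 9 markers lower in the knockout. The part of these cells in the members' values was not tested, and no marker was called.

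**Figure D3:**
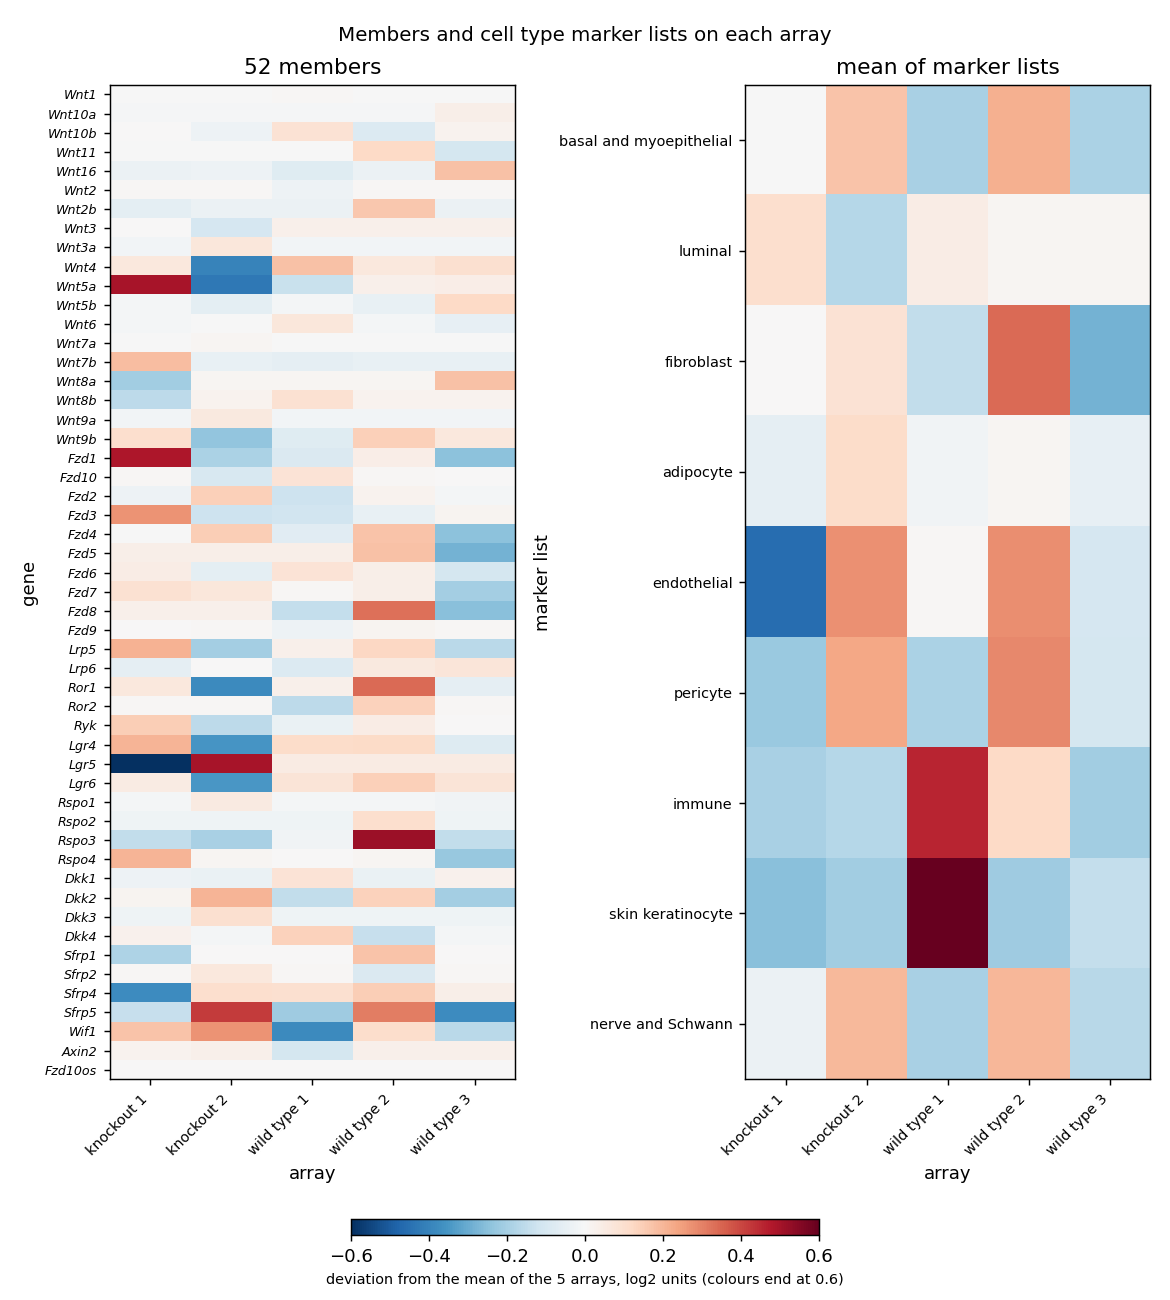
Deviation of each array from the mean of the 5 arrays, in log2 units, for the 52 members (left) and for the mean of 9 cell type marker lists (right), with colours ending at 0.6 in either direction. Rows of the ligands are mostly pale, Lgr5 and Wnt5a are the rows in which the knockout arrays take opposite strong colours, and the fibroblast, pericyte and basal lists are darkest red on wild type 2, whereas the skin and immune lists are darkest on wild type 1.

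Axin2, the feedback target often used as a readout of beta-catenin signalling, did not separate the genotypes. It read 4.42 and 4.43 in the knockout and 4.30, 4.43 and 4.43 in the wild type. Wild type 1 was low and the other arrays were nearly equal, with a difference of 0.04 ± 0.05 (SE; limma adjusted p = 0.919) and a 95% interval from -0.11 to 0.19. The other Axin2 probe set read 4.08 on all 5 arrays.

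The runs share no array, so each gives its own difference between a knockout array and its wild-type arrays. The sign was the same in both runs for 17 of the 52 members and opposite for 18, the others having no difference in at least 1 run. Over all genes the sign was the same for 33.2%, so the members' 17 of 52 (32.7%) lay at the background. Wif1 and Rspo4 (0.20 and 0.24) were higher in both runs, which for Wif1 follows from its separated groups. Wnt8a (-0.22 and -0.17) and Ror1 (-0.12 and -0.33) were lower in both. Wnt5a was at 0.55 in run 1 and -0.47 in run 2, and Lgr5 at -0.69 and 0.44. Wnt4 (-0.06 and -0.49) and Lgr6 (-0.06 and -0.43) differed mainly in run 2. Each run has 1 knockout array, and run 2 also has 1 wild-type array. The knockout values of both runs, and the wild-type values of run 2, thus have no replicate check within the run.

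**Figure D4:**
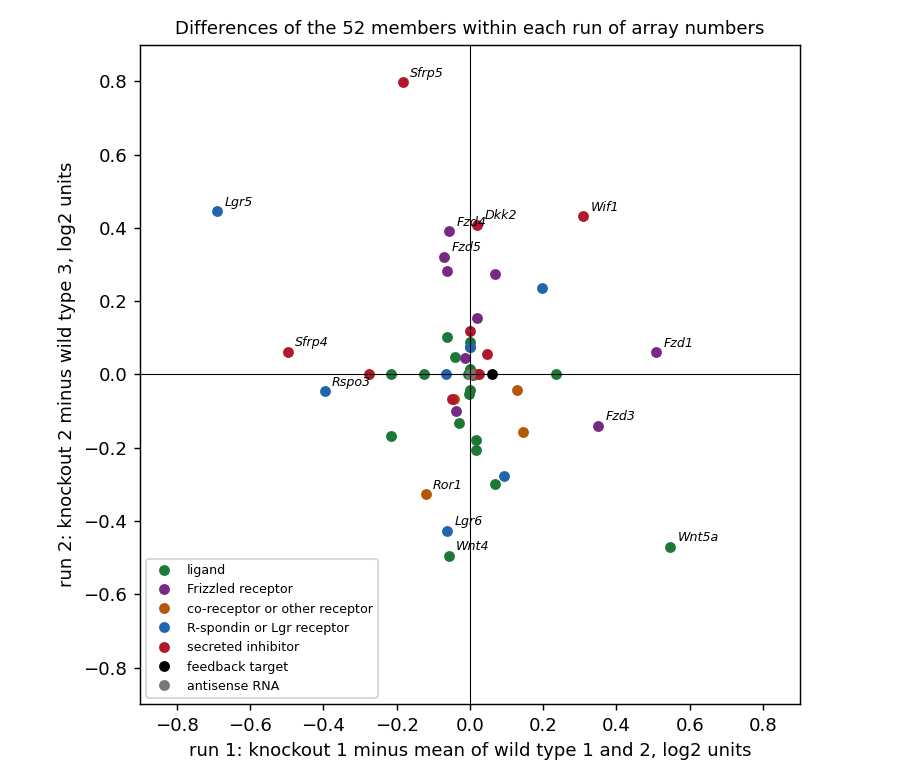
Difference between knockout and wild type for the 52 members within run 1 (horizontal, knockout 1 minus the mean of wild type 1 and 2) and within run 2 (vertical, knockout 2 minus wild type 3), in log2 units, coloured by role. Wif1 lies to the upper right at 0.31 and 0.43, Lgr5 and Sfrp5 lie in the upper left and Wnt5a in the lower right.

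The rest of the pathway, from ligand release to transcription, was also uncalled. A list of 62 such genes had 59 measured, of which 35 averaged higher in the knockout and 22 lower, with a median difference of 0.03 and 0 passing limma's test. Over all 22180 genes 10261 averaged higher and 10988 lower. Knockout 1 was the highest of the 5 arrays for 24 of the 59 (3774 of all genes), and knockout 2 for 14 (4749 of all genes). Tspan12, a tetraspanin that strengthens Norrin signalling through FZD4 and LRP5, read 6.64 and 6.72 in the knockout and 7.03, 6.92 and 6.91 in the wild type. Both knockout arrays lay below all wild-type arrays, with a difference of -0.27 ± 0.05 (SE; limma adjusted p = 0.919, unadjusted p = 0.00837). It was -0.34 within run 1 and -0.19 within run 2, where the shared sign follows from the separated groups. The receptors it works with, Fzd4 (5.94 and 6.09 against 5.87, 6.11 and 5.70) and Lrp5, overlapped between the genotypes.

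The groups also did not overlap for Kremen2, a DKK receptor, and Daam1, a formin of the planar polarity branch. Kremen2 read 4.06 and 4.27 in the knockout and 3.93, 3.96 and 4.06 in the wild type. Its difference was 0.19 ± 0.08 (SE; limma adjusted p = 0.919). Daam1 read 8.95 and 8.89 against 8.98 on each wild-type array, a difference of -0.06 ± 0.02 (SE; limma adjusted p = 0.919). Both rest mainly on knockout 2. Without it Kremen2 was at 0.08 and Daam1 at -0.03, and without knockout 1 Kremen2 was at 0.29 and Daam1 at -0.08, where Daam1 was called (limma adjusted p = 0.0234). Separated groups, 1 higher and 2 lower of 59, were again near the shares over all genes given above.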

How the data were processed

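The authors deposited log2 signals per probe set for 5 arrays. RMA, a method that usually corrects background, normalises quantiles and summarises probes by median polish, and limma are named without version or settings, per the submitters' processing notes. Per the labels' protocols, cells came from lymph node-free inguinal glands digested with collagenase and passed through differential centrifugation, and 10 ng of total RNA was labelled. The array model and annotation version were not given in the sources used here. Of 41345 probe sets, the 23521 with 1 gene symbol in the platform annotation were kept, 1 per gene with the highest mean over the 5 arrays. The 52 members matched 56 probe sets, 4 genes having 2. The test was limma 3.58.1 (lmFit and eBayes under R 4.3.3, no covariate, two-sided) across all 22180 genes, with Benjamini-Hochberg adjustment over all of them. The procedure was run on simulated data with independent normal noise and planted differences of 1 and 2 log2 units, larger than that of any member. The exact ties of these data were not built in, so the simulation does not cover tied values or small differences. Each p-value sets a group difference against a spread, moderated over all genes, between these arrays. The labels call them biological replicates but do not say how many mice each holds. Their number limits the precision.

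The members, the pathway list and the marker lists were chosen with earlier results of these data known. Values on every array are given for members with separated groups, the 3 with the largest moderated t of each role, those with a range above 0.5, and a list of members known in the gland. From the pathway list, genes with separated groups are named. Genes outside this rule were chosen after their values were seen: Pgr and Esr1 as luminal markers, Myh11 as a basal marker, Fzd4 beside Tspan12, and Wnt8a and Wnt7b as the ends of a range. The other luminal markers are named beside Pgr and Esr1 by their lowest array.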

Additional observations from a re-analysis of the deposited data

How the results depend on the processing

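The count of called genes stayed at 0 of 22180 and the count of called members at 0 with median centring, quantile normalisation, no dim genes (under the 40th percentile, which kept 34 members), probe sets averaged per gene, an intensity trend, the run as a fixed block and the replicate block. With 1 array left out they ran from 0 to 1757 genes and from 0 to 6 members, with all calls made without a knockout array. The median over the members stayed between -0.01 and 0.01 in all of these. For the pathway list it was 0.0016 with the replicate block and 0.0 to 0.047 with 1 array left out. Between arrays of the same replicate number, the correlation of deviations from the group mean was 0.245 for number 1 and -0.04 for number 2. With 2 knockout arrays, whose deviations mirror each other, this cannot decide whether the numbers pair the arrays. The replicate block changed no call.

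Of 215 values of named genes under alternatives with all 5 arrays, 211 kept their sign. The exceptions were Fzd8 with the replicate block (-0.063), Lrp5 with the replicate block (-0.077) and with median centring (-0.0018), and Ryk with the run as a block (0.016), and the cause was not tested. With 1 array left out, 13 genes turned sign. Their differences ran from -0.070 to 0.014 for Wnt10b, -0.41 to 0.52 for Wnt5a, -0.036 to 0.023 for Wnt6, -0.089 to 0.58 for Fzd1, -0.063 to 0.23 for Fzd8, -0.20 to 0.21 for Lrp5, -0.068 to 0.080 for Ror2, -0.16 to 0.15 for Ryk, -0.40 to 0.16 for Lgr4, -0.69 to 0.44 for Lgr5, -0.47 to 0.0062 for Sfrp4, -0.042 to 0.51 for Sfrp5 and -0.0036 to 0.063 for Axin2. Wif1, Fzd7, Wnt3, Lgr6 and Wnt4 kept their sign in each alternative run, as did other named genes such as Fzd2, Rspo4 and Sfrp1. For Wif1, Fzd7, Wnt3 and Lgr6, whose groups did not overlap, leaving out 1 array could not turn it.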
